A study of Mus musculus with 33 samples.

Results

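The genes described are the nuclear genes of the mitochondrial ribosome, taken as every gene symbol that starts with Mrpl or Mrps and goes on with a number and at most 1 further letter. The rule found 78 members among the 55376 gene symbols counted, 49 named Mrpl (large subunit) and 29 named Mrps (small subunit), and it left out 5 copies whose names end in -ps and a number or in -ps alone. By the known makeup of the ribosome, 51 members are proteins of the large subunit and 26 of the small subunit. The remaining member, Mrps36, carries a ribosomal name but is known as a subunit of the oxoglutarate dehydrogenase complex. Names and places do not always match, since the proteins of Mrps18a and Mrps30 sit in the large subunit. Of the members, 46 have a homologue in bacteria, 29 are found only in mitochondrial ribosomes and 2 are extra relatives of the small-subunit protein S18.

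Mitochondria keep their own ribosome, which translates the few proteins encoded on mitochondrial DNA, all of them membrane subunits of the respiratory chain and the ATP synthase. Its RNAs come from mitochondrial DNA, while all of its proteins are encoded in the nucleus, made in the cytosol and imported, so the level of their mRNAs is one side of a supply from separate genomes. Hematopoietic stem cells (HSCs) are often described by low protein synthesis and energy metabolism that leans on glycolysis, and their progeny by more active mitochondria. The paper, however, reports a stronger mitochondrial potential in HSCs than in differentiated cells of aged marrow, measured with the dye TMRM and verapamil.

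The libraries are total RNA-seq of cells sorted from the bone marrow of old C57BL/6 mice, which were 24 to 29 months of age. O-WT mice were untreated, O-NR mice drank water with nicotinamide riboside (NR), a precursor of NAD+, for 4 to 6 weeks, and O-NR-RC mice were given NR and then had it withdrawn for 2 months. Cohort 2 has 4 O-WT and 4 O-NR libraries of each of 3 cell types, which are HSCs, the progenitors of lymphocytes known as common lymphoid progenitors (CLPs) and the progenitors of granulocytes and monocytes (GMPs). Cohort 1 has only HSC libraries, of which 2 are O-WT and 4 O-NR, with 3 more from O-NR-RC mice. No group holds young mice, so every difference given here is between old animals. HSCs were sorted as live lineage-negative, c-Kit+, Sca1+, CD34-, Flk2-, CD150+ cells after c-Kit enrichment, so a CD150-negative stem cell would not be in these libraries. One label field calls the GMPs common myeloid progenitors, while their titles and the paper call them GMPs, the name used here.

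The counted reads of a library numbered 4792380 to 23816042, of which the members took 7479 to 42929. Summed CLP markers (Il7r, Flt3, Dntt, Rag1, Rag2 and Ly6d) stood at 2337 to 3954 RPM (reads scaled to the counted reads of the library, without other scaling) in CLPs and at 21.4 to 40.2 in the HSCs and 25.6 to 36.5 in the GMPs of cohort 2. GMP markers (Mpo, Elane, Ctsg, Prtn3, Csf1r and Ms4a3) stood at 17266 to 19894 RPM in GMPs, 311 to 606 in CLPs and 95 to 125 in those HSCs. Libraries differed in reads of olfactory and vomeronasal receptors, sensory genes of the nose that are not known for a role in blood cells. These reads summed to 858 to 2376 RPM in GMPs, 1502 to 4671 in the HSCs of cohort 2, 2115 to 8303 in CLPs and 4445 to 15260 in cohort 1. The factors by which edgeR's TMM method scales libraries rose with this sum, so levels are given both as CPM, which here include the TMM factor, and as RPM, which do not. CLP O-WT replicate 3 stood apart, with the fewest counted reads (4792380), the highest olfactory sum of its cohort (8303) and a TMM factor of 1.67. In cohort 1, O-NR replicates 1 and 2 and O-NR-RC replicates 2 and 3 had olfactory sums of 14277 to 15260 and the other 5 libraries, among them both O-WT libraries, 4445 to 9082.

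The members lie on 17 chromosomes. Many share a start region with a neighbour. In Gencode M21, 18 of the 78 members (23.1%) had a protein-coding gene starting within 1000 bases upstream on the other strand, against 1489 of 22028 protein-coding genes (6.76%), and the median distance between such starts was 82 bases for the members and 128 bases for all of these genes. The closest were Mrpl54 and Apba3, 26 bases apart, and 2 pairs at 29 bases, Mrps18c with the DNA helicase gene Helq and Mrps34 with the endonuclease gene Eme2. Other partners were Fau (59 bases from Mrpl49), which encodes a ribosomal protein of the cytosol, the proteasome gene Psma2 (75 bases from Mrpl32) and Sars2 (172 bases from Mrps12), the seryl-tRNA synthetase of mitochondria.

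Promoter windows of 250 bases before to 50 after the gene start were found in RefSeq (GRCm38.p6) for 69 of the 78 members, as 75 windows. Short motifs of 3 kinds were searched on both strands, those of NRF1 (gcgca, any base, gcgc), of ETS factors such as GABP (ccggaag) and of YY1 (aa, any base, atggcggc), factors known for genes of mitochondrial proteins. The NRF1 motif was in 13 of the 75 member windows (17.3%) and in 4.6% of all 32851 windows. The ETS motif was in 26 (34.7%) and in 8.86% of all windows, and the YY1 motif in 7 (9.33%) and in 0.986%. NRF1 and ETS motifs occurred together in 4 member windows, and 36 held none of the 3 motifs. Many matches lay after the start, since in the 250 bases before it alone the shares were 13.3% for NRF1, 24% for ETS and 1.33% (1 window) for YY1, against 3.74%, 6.91% and 0.347% of all windows. A match describes letters only and is not a measured binding site. The windows of 5 members to which the results below return are shown 5′ to 3′ on the strand of the gene, with NRF1 and ETS motifs in capitals. Mrpl12 (chr11:120484387-120484686, plus strand), Mrpl57 (chr14:57825989-57826288, plus strand) and Mrpl18 (chr17:12916042-12916341, minus strand) are members far lower in HSCs than in GMPs. Mrpl52 (chr14:54426659-54426958, plus strand) is the member that was higher. Mrps6 (chr16:92058086-92058385, plus strand) is a member at about the same level in all 3 cell types on the TMM scale.
Mrpl12: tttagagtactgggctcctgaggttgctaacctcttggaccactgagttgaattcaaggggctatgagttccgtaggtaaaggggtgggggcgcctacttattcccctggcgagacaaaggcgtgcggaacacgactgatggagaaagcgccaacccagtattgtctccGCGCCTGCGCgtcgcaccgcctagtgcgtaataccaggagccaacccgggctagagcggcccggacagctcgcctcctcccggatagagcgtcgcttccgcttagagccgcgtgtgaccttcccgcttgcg
Mrpl57: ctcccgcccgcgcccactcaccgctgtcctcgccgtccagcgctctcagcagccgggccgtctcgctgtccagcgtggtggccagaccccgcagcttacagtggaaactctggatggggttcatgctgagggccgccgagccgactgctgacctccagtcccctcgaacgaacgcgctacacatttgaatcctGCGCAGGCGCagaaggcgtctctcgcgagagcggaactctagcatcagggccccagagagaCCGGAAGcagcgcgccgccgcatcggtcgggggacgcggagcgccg
Mrpl18: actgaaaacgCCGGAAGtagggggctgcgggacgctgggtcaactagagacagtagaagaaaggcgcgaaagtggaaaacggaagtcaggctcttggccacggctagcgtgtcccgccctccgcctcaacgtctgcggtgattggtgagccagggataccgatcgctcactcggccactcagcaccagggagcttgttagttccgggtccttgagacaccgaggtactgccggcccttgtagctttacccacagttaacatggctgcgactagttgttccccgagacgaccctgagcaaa
Mrpl52: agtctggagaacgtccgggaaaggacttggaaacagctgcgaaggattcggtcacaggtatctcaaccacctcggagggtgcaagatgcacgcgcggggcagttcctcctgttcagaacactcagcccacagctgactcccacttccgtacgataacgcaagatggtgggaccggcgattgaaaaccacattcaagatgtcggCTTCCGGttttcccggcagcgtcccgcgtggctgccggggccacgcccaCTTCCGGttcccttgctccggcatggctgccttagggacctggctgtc
Mrps6: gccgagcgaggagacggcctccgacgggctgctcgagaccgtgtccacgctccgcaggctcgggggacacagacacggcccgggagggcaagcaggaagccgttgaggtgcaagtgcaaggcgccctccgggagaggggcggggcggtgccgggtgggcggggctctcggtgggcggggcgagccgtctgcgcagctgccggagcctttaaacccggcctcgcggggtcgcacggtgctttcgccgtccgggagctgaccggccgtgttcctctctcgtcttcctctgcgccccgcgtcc
The window of Mrpl12 holds an NRF1 motif, that of Mrpl57 an NRF1 and an ETS motif and that of Mrpl18 an ETS motif near its upstream end. That of Mrpl52 holds a pair of ETS motifs on the opposite strand, while the window of Mrps6 holds none of the 3. Of other members far lower in HSCs or CLPs than in GMPs, Mrpl44 has an NRF1 motif, while the windows of Mrpl28 and Mrps24 hold none of the 3. A link between motifs and levels was not tested.

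Together, the members were most abundant in GMPs. They summed to 2261 ± 84.9 RPM in O-WT GMPs, 1581 ± 43.1 in O-WT HSCs and 1673 ± 115 in O-WT CLPs (mean ± SD, n = 4 libraries each). With NR the sums were 2330 ± 89.8 in GMPs, 1583 ± 34.4 in HSCs and 1704 ± 109 in CLPs (SD, n = 4 each). The lowest of the 8 GMP libraries (2156) lay above the highest of the 8 HSC (1642) and the 8 CLP libraries (1833). On the TMM scale the ratio of GMPs to HSCs was 1.81 in O-WT and 1.69 in O-NR, and without that scaling 1.43 and 1.47. HSCs and CLPs overlapped on both scales. HSCs of cohort 1 gave 1519 ± 57.9 in O-WT (n = 2), 1481 ± 62.4 in O-NR (n = 4) and 1478 ± 72.3 in O-NR-RC (n = 3), each SD, between 1399 and 1560 over the 9 libraries. In bulk RNA, fewer cells of a type and less RNA per cell cannot be told apart, and a share of all counted reads says nothing of the total RNA per cell.

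**Figure D1:**
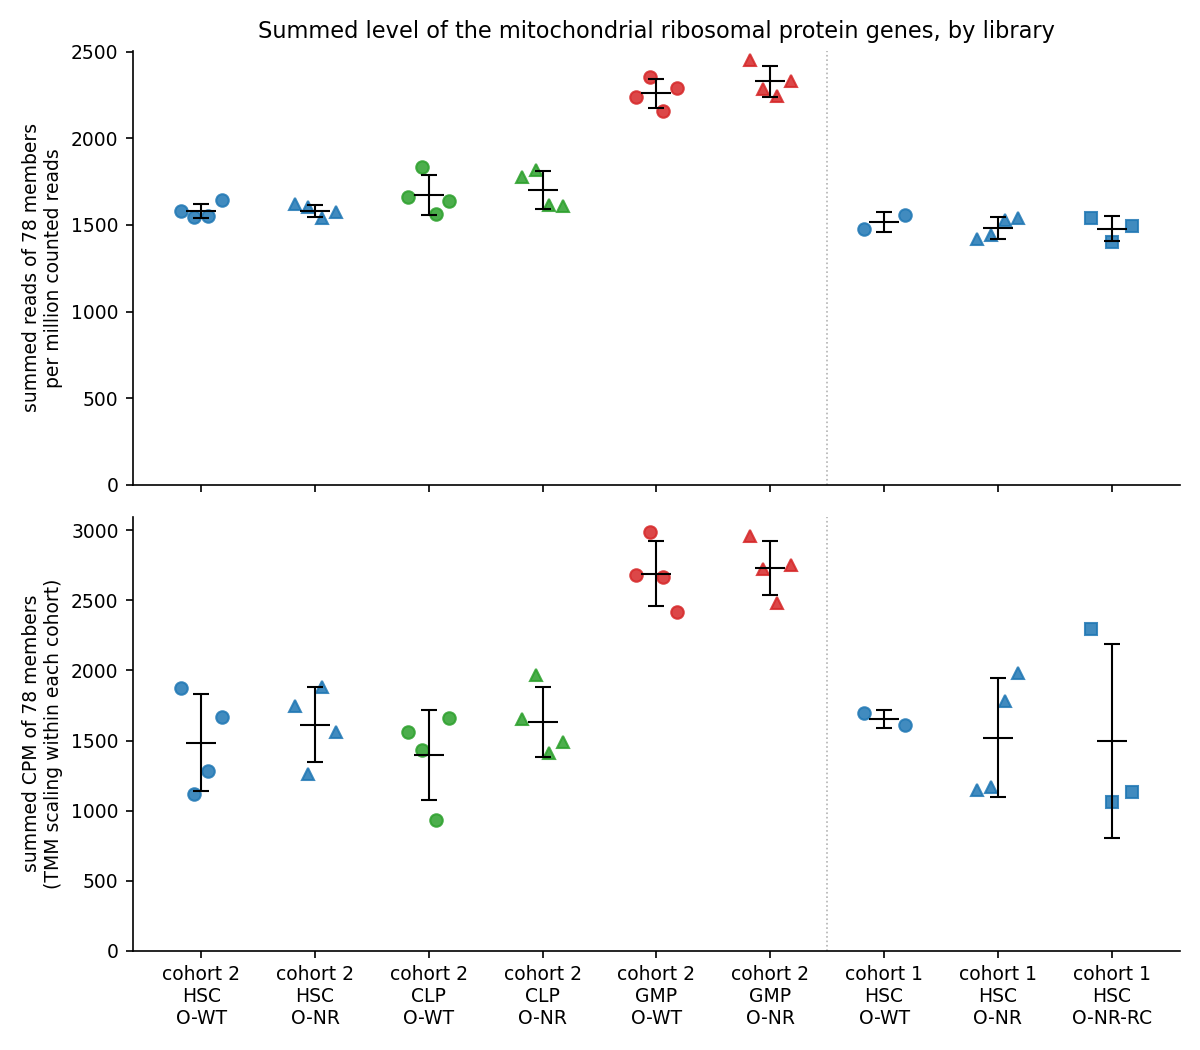
Summed level of the 78 members in each library, in RPM (top) and as summed CPM after TMM scaling within each cohort (bottom), by group on the x axis, with 1 point per library and bars for the mean ± SD. The GMP libraries lie at 2156 to 2454 RPM and all HSC and CLP libraries at or below 1833, and the spread within HSC and CLP groups is wider on the TMM scale.

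The olfactory sum differed between cell types in the direction of the scaling factors, so HSC and GMP libraries with like sums were set side by side. Within the range that both cell types cover (1502 to 2376 RPM), 4 HSC libraries had member sums of 1540 to 1642 and 5 GMP libraries 2246 to 2454 RPM, without overlap. For CLPs and GMPs the shared range held only 1 library of each, at 1820 in the CLP and 2292 in the GMP library. Against the ribosomal proteins of the cytosol, the members took 36.5 to 46.1 reads per 1000 in the HSCs of cohort 2, 48.3 to 68.0 in CLPs and 55.3 to 60.4 in GMPs. The cytosolic genes themselves overlapped between HSCs (33595 to 44974 RPM) and GMPs (38982 to 41548). Small-subunit members gave 0.450 to 0.509 reads per read of large-subunit members in HSCs and GMPs of cohort 2, 0.412 to 0.495 in CLPs and 0.503 to 0.547 in cohort 1, so both subunits kept a similar proportion in the 3 cell types of cohort 2.

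**Figure D2:**
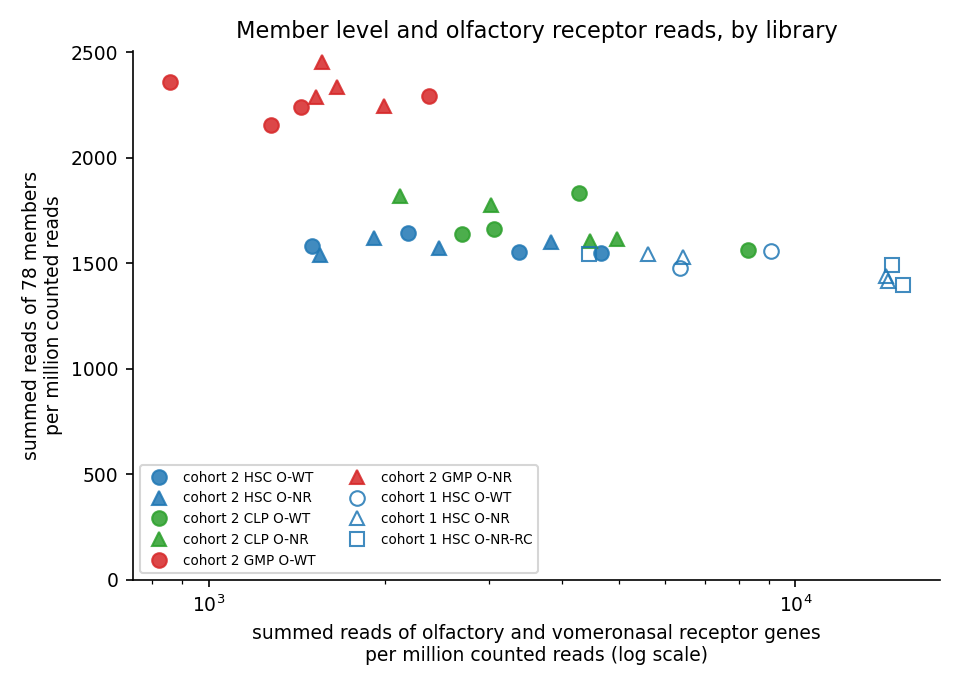
Summed reads of the 78 members (y axis) against summed reads of olfactory and vomeronasal receptor genes (x axis, log scale), both in RPM, with 1 point per library, coloured by cell type and shaped by treatment, open for cohort 1. GMP libraries lie above HSC libraries also where the x values overlap, between 1502 and 2376.

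Between HSCs and GMPs most members differed. In O-WT, 68 of the 77 members tested were lower in HSCs than in GMPs and 1, Mrpl52, was higher (edgeR quasi-likelihood test, Benjamini-Hochberg adjusted p under 0.05). Of all 20044 genes tested, 22.6% were lower and 21.5% higher. The median log2 fold change of the members was −0.91 against 0.31 for all genes. All genes here include those that passed the filter through 1 cell type only. In fits of a single cell type 13486 genes passed it in GMPs and 19909 in CLPs. The part of such genes in the median was not tested. In O-NR, 67 members were lower and Mrpl52 again higher, where 24.4% of all 18080 genes were lower and 22% higher, with a median of −0.85 against 0.12. The lists share 65 members called lower in both treatments. In O-WT, 61 members were lower without overlap between the 4 HSC and the 4 GMP libraries, where 20% of all genes were. Taking all 8 libraries of each cell type, 53 of 78 members lay lower in every HSC library than in every GMP library on the TMM scale and 48 in RPM, where 16.1% and 14.3% of all genes did.

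The difference ran through both subunits and both origins. Among small-subunit members 23 of 26 were lower in HSCs than in GMPs in O-WT (median log2 fold change −0.92) and among large-subunit members 44 of 50 (median −0.91). Of the bacterial homologues 39 of 46 were lower (median −0.93) and of the mitochondria-specific members 26 of 28 (median −0.87). By comparison, 17 of 79 ribosomal protein genes of the cytosol were lower and none higher, with a median of −0.31. The 8 members that were not called in O-WT were Mrpl14, Mrpl17, Mrpl23, Mrpl24, Mrpl27, Mrps6, Mrps16 and Mrps31, named after their values were seen. The number of calls and the size of the difference depend on the scaling. With library totals in place of TMM, 56 members were lower and 1 higher (16.7% and 34.2% of all genes) and the median was −0.57, while the median of all genes moved from 0.31 to 0.68. The member median minus that of all genes was −1.22 under TMM on the log2 scale, a difference that another scaling hardly moves by its construction, since it shifts all genes of a library together.

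Mrpl18 (chr17:12911349-12916345, minus strand, mm10), a large-subunit protein of the central protuberance, showed the widest gap. Its O-WT libraries held 23.1, 12.3, 19.1 and 34.2 CPM (HSCs), 34.7, 32.4, 19 and 38.5 CPM (CLPs) and 83.1, 109, 89.8 and 85.6 CPM (GMPs). All GMP libraries lay far above all HSC and CLP libraries. Mrpl18 was 4.16-fold lower in HSCs than in GMPs in O-WT (log2 fold change −2.06 ± 0.21 SE, edgeR adjusted p = 3.51e-09) and 4.4-fold lower in O-NR (−2.14 ± 0.15). Its exons overlap those of Tcp1, a chaperonin gene, on the other strand, and the strand setting of the counting is not stated in the sources used here, so reads of the pair may not be fully told apart. Mrpl12 (chr11:120484613-120489065, plus strand), a protein of the ribosomal stalk that also binds the mitochondrial RNA polymerase, gave 31.8, 17.3, 25.1 and 30.2 CPM in O-WT HSCs, 37, 31.2, 19 and 36.1 in CLPs and 83.9, 98.9, 77.1 and 80 in GMPs. Here too the GMP libraries stood clear of the others. It was 3.27-fold lower in HSCs than in GMPs in O-WT (−1.71 ± 0.17 SE, edgeR adjusted p = 3.95e-09) and 3.25-fold lower in O-NR. Its exons overlap Gm16755 on the other strand.

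A further 3 members were named by the largest difference called in both treatments. Mrps28, a small-subunit protein, ranged from 5.05 to 9.12 CPM in O-WT HSCs and from 15.2 to 24.8 in O-WT GMPs (log2 fold change −1.61 ± 0.24 SE, edgeR adjusted p = 3.40e-06). Mrpl57, a mitochondria-specific large-subunit protein, ranged from 8.37 to 15 in HSCs and from 26.5 to 38.7 in GMPs (−1.40 ± 0.21, adjusted p = 3.94e-06). Mrpl28, a large-subunit protein with a bacterial homologue, ranged from 8.46 to 20 in HSCs and from 35 to 40.3 in GMPs (−1.39 ± 0.22, adjusted p = 4.74e-06). In none of these 3 did the groups overlap, and in O-NR their log2 fold changes were −1.39, −1.03 and −1.38.

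**Figure D3:**
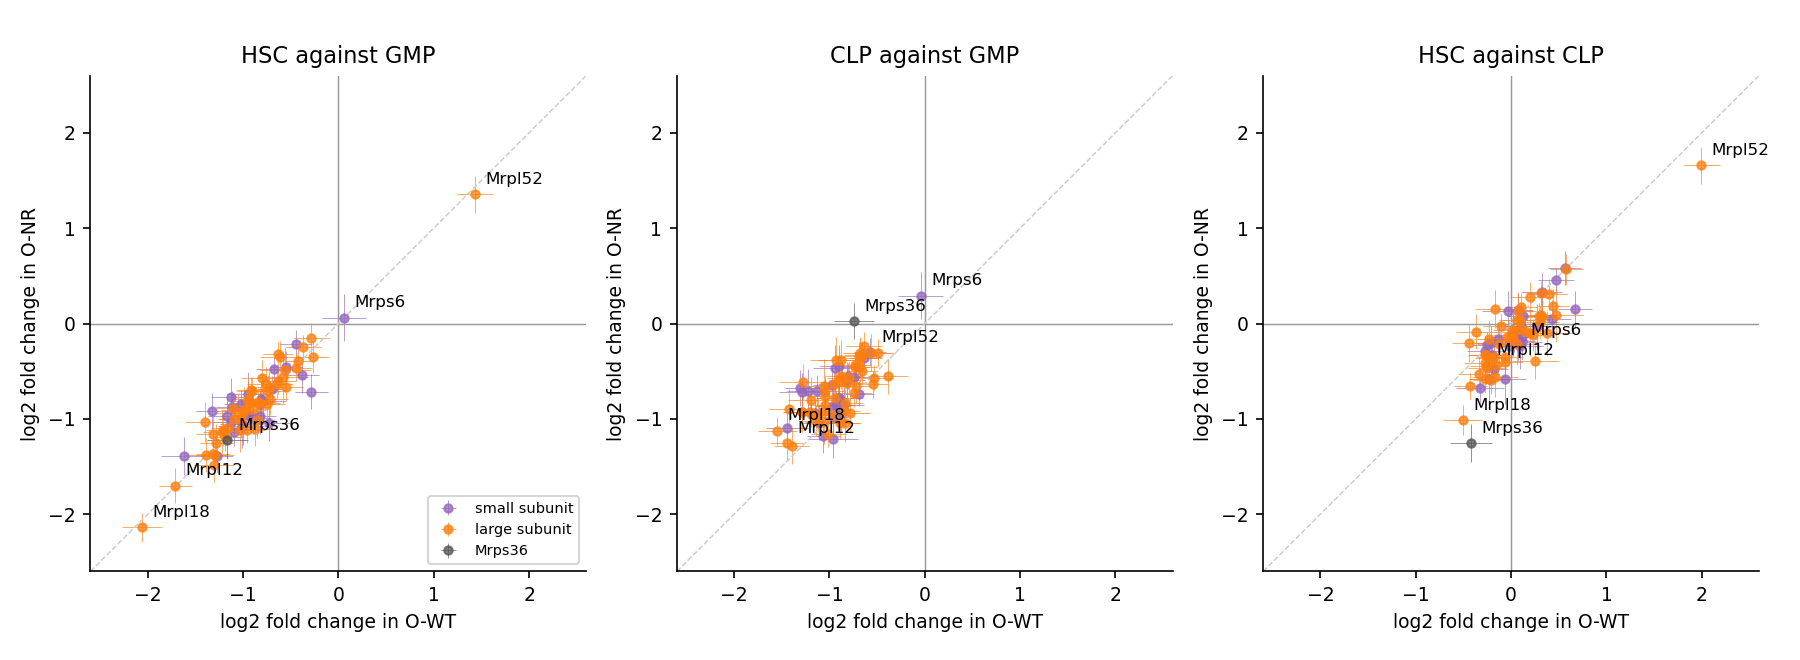
Log2 fold change of each tested member in O-NR (y axis) against that in O-WT (x axis) for the 3 pairs of cell types, with SE bars, coloured by subunit. Most members lie at negative values in both treatments for HSCs against GMPs and for CLPs against GMPs, around 0 for HSCs against CLPs, and Mrpl52 lies apart at positive values in both panels with HSCs.

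CLPs were also lower than GMPs in most members. In O-WT, 75 of the 77 members were lower in CLPs than in GMPs and none was higher (28.6% of all genes were lower and 32.2% higher), with a median log2 fold change of −0.90 against 0.28 for all genes. The members not called were Mrps6 and Mrpl49. In O-NR, 63 were lower and none higher (26.1% and 23.9% of all genes), with a median of −0.71, and 62 members were lower in both treatments. Under library totals 44 members were lower in each treatment (15.1% of all genes in O-WT and 17.2% in O-NR) and the medians were −0.41 and −0.44, with medians of all genes of 0.79 and 0.41. The largest differences called in both treatments were found for Mrpl18 (−1.55 ± 0.21 SE in O-WT), Mrpl12 (−1.45 ± 0.17), Mrps24 (−1.44 ± 0.22), Mrpl57 (−1.42 ± 0.22) and Mrpl44 (−1.39 ± 0.18). Mrps24, a small-subunit protein with a bacterial homologue, had 13.3, 9.32, 5.98 and 18.9 CPM in O-WT CLPs, while the GMP libraries lay between 30.6 and 37.2, and its exons overlap Urgcp on the same strand. Mrpl44, a large-subunit protein related to the RNA-cleaving enzyme RNase III, had 18.2, 10.9, 8.10 and 13.9 CPM in CLPs against values between 31.8 and 35.5 in GMPs, and its exons overlap Wdfy1 on the other strand. Neither gene overlapped between the groups, and over all 77 members 70 did not, where 25.7% of all genes were lower without overlap. Taking all 8 libraries of each cell type, 50 of 78 members were lower in every CLP than in every GMP library on the TMM scale but 23 in RPM, where 17% and 9.9% of all genes were. The cytosolic ribosomal proteins moved alike in this pair, with 75 of 79 lower in CLPs and a median of −0.89.

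HSCs and CLPs were close to each other. In O-WT, 5 members were higher in HSCs than in CLPs and none lower (19.9% of all genes were higher and 10.4% lower), with a median log2 fold change of 0.02 against −0.08 for all genes. At an unadjusted p under 0.05 there were 11 members in either direction, and DESeq2 likewise gave 0 lower. Shares of all genes for these counts are not given here. At the unadjusted p the share is no lower than that called after adjustment. The 5 members called higher were Mrpl52, Mrps31, Mrpl17, Mrps25 and Mrpl9, of which Mrps31 (0.67 ± 0.18 SE) and Mrpl9 (0.44 ± 0.16) are named after their values were seen. In O-NR, 5 were higher and 12 lower (22.6% and 18.3% of all genes), with a median of −0.14. Only Mrpl17, Mrpl52 and Mrps25 were higher in both treatments and no member was lower in both. The direction of the calls in O-WT rested on the scaling. Under library totals 4 members were higher and 13 lower (16.9% and 13.9% of all genes). Under upper quartile scaling 4 were higher and 19 lower (15.2% and 15.9% of all genes). With the replicate number, taken as the animal from the names of the deposited counts, as a block, 1 member was lower in O-WT. The counts also rested on single libraries. In O-WT the higher members numbered 3 without HSC replicate 1, HSC replicate 3 or CLP replicate 1 and 2 without CLP replicate 2, and the lower members 2 without HSC replicate 1, 1 without HSC replicate 4 and 10 without CLP replicate 3, the library that stood apart. In O-NR the 12 lower members became 24 under upper quartile scaling (22.5% of all genes), 3 with a filter at 1 CPM, 2 with no filter and 3 in 1 model of all 24 libraries. There, 2 members were higher without CLP replicate 4, and 21 or 19 lower without CLP replicate 3 or 4. Shares of all genes are not given here for the filters, the single model, the block or the fits without 1 library. Of the cytosolic ribosomal proteins, 35 of 79 were higher in HSCs than in CLPs in O-WT and 1 lower (median 0.52).

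Mrpl52 (chr14:54426909-54429756, plus strand), a mitochondria-specific protein of the large subunit, was the exception among the members. Its CPM were 89.4, 32.9, 52.3 and 57.7 in O-WT HSCs and 84.2, 39.9, 66.6 and 49.5 in O-NR HSCs. CLPs had 16.6, 14, 13.2 and 12.4 in O-WT and 23, 20.9, 10.9 and 16.7 in O-NR, and GMPs 20.3, 23.8, 23.2 and 17.5 in O-WT and 27.2, 19, 21.7 and 22 in O-NR. Each of the 8 HSC libraries lay above each CLP and GMP library, although the HSC libraries differed widely among themselves. Mrpl52 was 3.99-fold higher in HSCs than in CLPs (log2 fold change 2.00 ± 0.20 SE, edgeR adjusted p = 3.46e-09) and 2.70-fold higher than in GMPs (1.43 ± 0.19, adjusted p = 4.08e-07) in O-WT. In O-NR it was 3.16-fold and 2.55-fold higher. The cohort 1 HSCs had 66.4 and 55.6 CPM in O-WT, 24.7, 32.7, 67.7 and 76.4 in O-NR and 113, 26.5 and 26.5 in O-NR-RC, and the 4 lowest of these 9 are the libraries with the high olfactory sums. The exons of Mrpl52 overlap no other gene in Gencode M21.

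Mrpl17 and Mrps25 were higher in HSCs than in CLPs to a lesser degree. Mrpl17, a large-subunit protein with a bacterial homologue, had 42.9, 22.8, 27.5 and 31.3 CPM in O-WT HSCs and 25.1, 22.2, 12.7 and 21.7 in O-WT CLPs, overlapping by 1 CLP library above the lowest HSC library (0.58 ± 0.17 SE, edgeR adjusted p = 0.0109). In GMPs it had 33.3 to 41.6 CPM, and the difference between HSCs and GMPs was not called (−0.27 ± 0.17). Mrps25, a mitochondria-specific small-subunit protein, had 46.5, 23.7, 38.8 and 41.1 CPM in O-WT HSCs, 23.0, 25.7, 18 and 33 in CLPs and 49.9 to 63.4 in GMPs. It was thus lowest in CLPs (0.56 ± 0.17 SE for HSCs against CLPs, edgeR adjusted p = 0.0131) and highest in GMPs (−0.55 ± 0.17 for HSCs against GMPs, adjusted p = 0.00936). Its exons overlap those of Nr2c2 on the other strand.

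Mrps6 (chr16:92058270-92112227, plus strand), a small-subunit protein with a bacterial homologue, had about the same level everywhere on the TMM scale. The O-WT libraries had 14.3, 9.48, 7.92 and 12.4 CPM for HSCs, 12.2, 11.7, 5.61 and 11.1 for CLPs and 9.52, 12.6, 11.8 and 8.27 for GMPs, and the groups overlapped fully. In RPM the O-WT GMP libraries lay below most O-WT HSC and CLP libraries, with some overlap. The log2 fold change was 0.06 ± 0.23 SE for HSCs against GMPs and −0.04 ± 0.24 for CLPs against GMPs, and neither was called. Its exons overlap those of Slc5a3 and Gm49711 on the same strand, and how reads in the overlap were assigned is not stated in the sources used here. Mrps36 (chr13:100735955-100744659, minus strand), the member outside the ribosome, had 9.66, 6.23, 7.74 and 5.19 CPM in O-WT HSCs, 10.2, 8.65, 7.85 and 11.3 in CLPs and 18.2, 15.3, 16.9 and 14.3 in GMPs. GMPs were again highest, and it was lower in HSCs (−1.16 ± 0.21 SE, edgeR adjusted p = 5.29e-05) and in CLPs (−0.74 ± 0.21, adjusted p = 0.00520) than in GMPs.

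**Figure D4:**
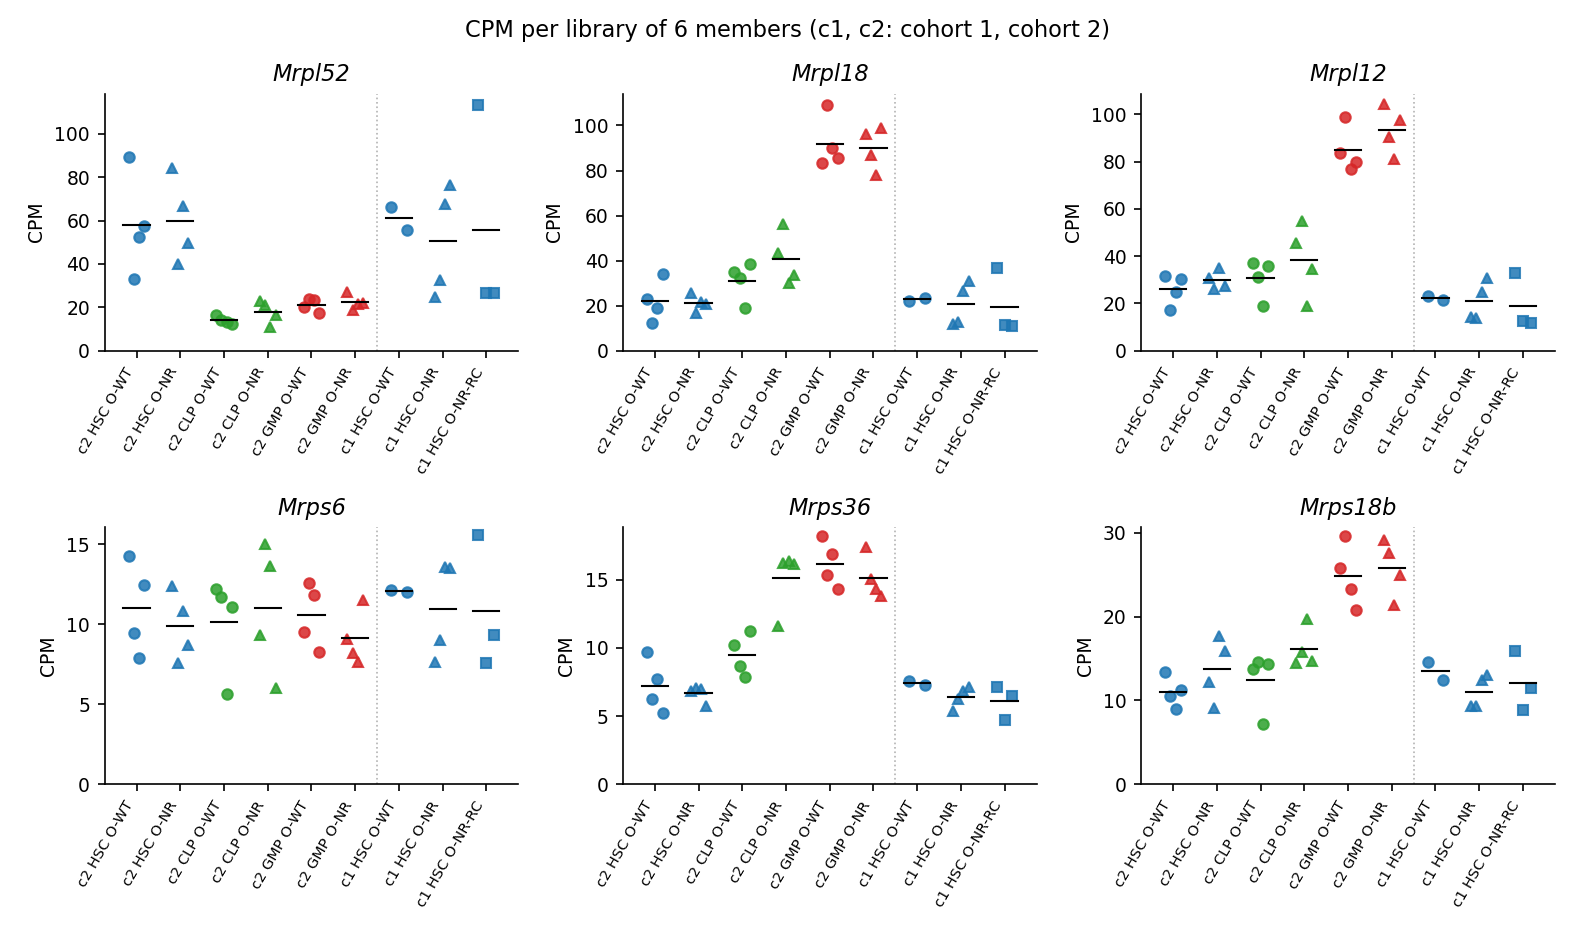
CPM (TMM scaling) of 6 members in each library, by group on the x axis (c1 and c2 are cohorts 1 and 2), with lines at the group means. Mrpl52 is highest in HSCs, Mrpl18, Mrpl12 and Mrps18b in GMPs, Mrps6 is alike in all cell types, and Mrps36 in CLPs is higher in the 4 O-NR than in the 4 O-WT libraries on this scale, while the groups overlap in RPM.

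The 3 relatives of the bacterial protein S18, of which Mrps18b and Mrps18c belong to the small and Mrps18a to the large subunit, were all lower in HSCs and in CLPs than in GMPs in O-WT. In O-WT HSCs, Mrps18a had 14 to 25.7 CPM, Mrps18b 8.96 to 13.3 and Mrps18c 4.87 to 7.73, and in O-WT GMPs they had 31.7 to 42.5, 20.8 to 29.6 and 10.3 to 11.8. None of the 3 overlapped between these groups. The log2 fold changes of HSCs against GMPs were −0.84 ± 0.19, −1.17 ± 0.19 and −0.79 ± 0.24 SE, and each was called (edgeR adjusted p = 0.000503, 1.25e-05 and 0.00888). For CLPs against GMPs the values were −0.64, −0.98 and −0.89, each called.

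Levels between members can be compared only per length of exon, which ran from 607 to 8631 bases with a median of 2394. In O-WT HSCs the median member had 6.69 CPM per kb. Mrpl52 led with 52.4 ± 21.2 CPM per kb, followed by Mrpl24 with 22.3 ± 6.31 and Mrpl54 with 17.2 ± 5.71 (SD, n = 4), and of these Mrpl24 and Mrpl54 do not differ beyond their spread. Mrpl24 and Mrpl54 are large-subunit proteins, the first with a bacterial homologue and with exons that overlap Rrnad1 on the other strand. At the lower end, Mrpl13 had 2.72 ± 0.623 and Mrpl32 2.6 ± 0.832 CPM per kb, within their spread of each other. Mrpl53 had 0 reads in all 33 libraries and entered no test, and its exons overlap Gm42688 on the same strand. In O-WT GMPs the median was 12.1 CPM per kb, and Mrpl18 (65.8 ± 8.49) and Mrpl12 (55.5 ± 6.33) led instead. In O-WT CLPs the median was 6.32, with Mrpl18 at 22.3 ± 6.09 and Mrpl12 at 20.1 ± 5.42. Exon length counts all annotated exons of a gene, so a gene with a rarely used long exon reads too low per kb. The 5 copies named -ps, of Mrpl23, Mrpl48 and Mrps36, took at most 45 reads in any library, and how reads shared with them were counted is not stated in the sources used here.

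Across the 24 libraries of cohort 2, most members rose and fell together. Pearson's r of a member's log2 CPM with the mean of the other members had a median of 0.91, was above 0.9 for 45 members and above 0.8 for 69. These libraries share 3 cell types and a scaling that moves all genes of a library at once, so the r is a description only. The members most like the rest were Mrpl19 (0.97), Mrpl57 and Mrpl51, all of the large subunit. The least like were Mrpl52 (−0.07), Mrps6 (0.25) and Mrps36 (0.65). Within a group, the median coefficient of variation of a member was 10.4% to 12.8% in GMPs, 18.4% to 25.3% in the HSCs of cohort 2, 24.3% to 26.1% in CLPs and up to 45.7% in the O-NR-RC HSCs of cohort 1.

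Proteins of the mitochondrial ribosome that carry other symbols followed the members. Of 5, 4 were lower in HSCs than in GMPs in O-WT, namely Gadd45gip1 (−1.32 ± 0.20 SE), Chchd1 (−1.14 ± 0.20), Aurkaip1 (−1.06 ± 0.17) and Ptcd3 (−0.79 ± 0.15). The remaining one was Dap3, a GTP-binding protein of the small subunit that was first described in cell death. Its CPM were 57.9, 34.2, 41.8 and 45.3 in O-WT HSCs and 55.7, 53.5, 51.1 and 46.3 in GMPs (−0.21 in log2, not called), and in CLPs it had 34.7, 27.3, 18.1 and 38.7. Dap3 was higher in HSCs than in CLPs (0.58 ± 0.17) and lower in CLPs than in GMPs (−0.78 ± 0.17). In CLPs against GMPs all 5 were lower.

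Factors that work on the ribosome were split. Of 15 translation factors, 7 were lower in HSCs than in GMPs in O-WT and none higher (22.6% and 21.5% of all genes; median −0.36 against 0.31 for all genes). Lrpprc, which stabilizes mitochondrial mRNAs, had 50.7 to 87.0 CPM in O-WT HSCs and 157 to 193 in GMPs (−1.35 ± 0.17 SE), and the elongation factors Tufm (−1.33 ± 0.18) and Gfm1 (−1.24 ± 0.15) were also lower. In HSCs against CLPs, 4 were higher and none lower (19.9% and 10.4% of all genes), among them Mrrf (0.85 ± 0.17), which recycles ribosomes after termination, with 16.9 to 30.8 CPM in O-WT HSCs and 12.8 to 14.6 in CLPs, and Guf1 (0.69 ± 0.17), an elongation factor. Of 24 assembly factors, 8 were lower in HSCs than in GMPs in O-WT and 1 higher (median −0.27), a count of lower genes not far above the 22.6% of all genes. C1qbp, a protein of the mitochondrial matrix that binds RNA, had 35 to 58.6 CPM in HSCs against 138 to 175 in GMPs (−1.72 ± 0.18), and the helicase Ddx28 (−1.62 ± 0.28) and Rbfa (−1.42 ± 0.20), which acts in small-subunit assembly, were also lower. Nsun4, an RNA methyltransferase of ribosome assembly, was the one that was higher, with 31.9, 27.6, 21.6 and 20.2 CPM in HSCs, 17.9, 20.9, 24.2 and 18.8 in CLPs and 18.2, 13.0, 14.4 and 14.4 in GMPs (0.77 ± 0.19, edgeR adjusted p = 0.00137). Against CLPs, the assembly factors Ngrn (0.69 ± 0.21) and Mtg2 (0.55 ± 0.18) were higher in HSCs and Ddx28 lower (−0.88 ± 0.28). In CLPs against GMPs, 12 of the 15 translation factors and 13 of the 24 assembly factors were lower, where 28.6% of all genes were, and Nsun4 was higher (0.50 ± 0.19), where 32.2% of all genes were.

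The main question of the study was what NR changes in these old cells. For the members, NR and its withdrawal gave no call in the main fits, which hold no term for unwanted variation. With 1 such term, cohort 1 gave members lower in O-NR and in O-NR-RC than in O-WT, as given below. In HSCs, CLPs and GMPs of cohort 2, 0 of 77 members had an unadjusted p under 0.01 between O-NR and O-WT, where 0.777%, 0.412% and 0.986% of all genes had one, and no gene of any kind passed an adjusted p of 0.05 (edgeR quasi-likelihood test). At an unadjusted p under 0.05 there were 2 members in each cell type, where 4.06%, 3.21% and 4.83% of all genes were, and DESeq2 also gave 0 members under 0.01. The median log2 fold change of the members was 0.04 for HSCs, 0.17 for CLPs and 0.03 for GMPs. In cohort 1, 0 members had p under 0.01 or 0.05 in O-NR against O-WT, in O-NR-RC against O-NR and in O-NR-RC against O-WT, with medians of −0.10, −0.03 and −0.14. Of all genes, 0.048%, 0.036% and 0.078% had p under 0.01 there and 0.546%, 0.291% and 0.795% p under 0.05. The 2 comparisons with O-WT share the same 2 O-WT libraries, and both comparisons with O-NR share its 4. The median SE of a member was 0.15 in the HSCs of cohort 2, 0.23 in CLPs, 0.10 in GMPs and 0.31 to 0.36 in cohort 1. In CLPs, the difference of Mrps36 given next lay well above the median SE but did not reach an unadjusted p under 0.01. Changes near the SE may thus go unseen at this depth and number of libraries. The limit differs between cell types and cohorts.

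**Figure D5:**
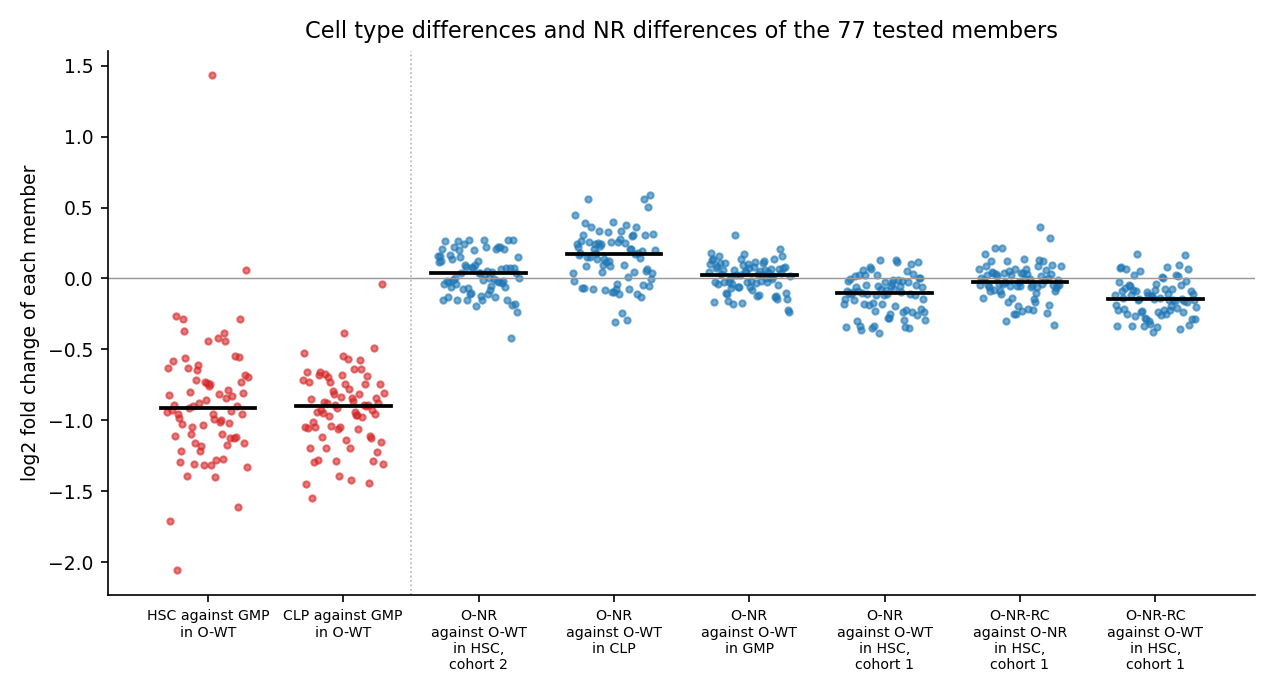
Log2 fold change of each of the 77 tested members (1 point each, y axis) in the comparisons of HSCs and of CLPs with GMPs in O-WT and in the 6 NR and withdrawal comparisons, with lines at the medians. The members lie around −0.91 and −0.90 in the cell type comparisons and around medians between −0.14 and 0.17 in the others.

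The members nearest to a call were chosen after their values were seen. In HSCs of cohort 2, Mrps31, a mitochondria-specific small-subunit protein, had 23.1, 14.3, 14.1 and 18.2 CPM in O-WT and 15, 8.73, 17.7 and 13.9 in O-NR, with overlap (−0.42 ± 0.16 SE, edgeR adjusted p = 0.995). Over the HSCs of both cohorts its difference was −0.32 ± 0.13 SE in the edgeR fit. In CLPs, Mrps36 had 10.2, 8.65, 7.85 and 11.3 in the O-WT libraries and 11.6, 16.2, 16.4 and 16.1 in O-NR, without overlap (0.59 ± 0.25 SE, edgeR adjusted p above 0.99), and 1.26% of all genes were higher without overlap in this comparison. This separation holds on the TMM scale only, since in RPM O-WT replicate 3, the library that stood apart, lay above the lowest O-NR library. Its difference between CLPs and GMPs was 0.03 ± 0.19 SE in O-NR. In GMPs, Mrpl36, a large-subunit protein with a bacterial homologue, had 21.1, 26.9, 21 and 19.5 CPM in O-WT and 30.1, 26.5, 27.1 and 25.9 in O-NR, overlapping through 1 O-WT library (0.30 ± 0.10 SE, edgeR adjusted p = 0.997). Without O-WT replicate 2, or without O-NR replicate 4, its unadjusted p fell under 0.01 but no member passed adjustment. Its exons overlap Ndufs6 on the other strand.

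In CLPs, 58 of the 77 members had a positive log2 fold change with NR. All 78 cytosolic ribosomal protein genes tested had one too, with a median of 0.16. The member median was 0.17 against −0.005 for all genes, and it ran from 0.07 to 0.21 when 1 library was left out. The share of all genes with a positive change is not given here. Under library totals the median of the members in CLPs was 0.05, and that of all genes −0.15. The summed member level was 1673 ± 115 RPM in O-WT and 1704 ± 109 RPM in O-NR CLPs, a difference within the spread. Whether the NR effect differed between cell types was tested as an interaction over the 24 libraries. No member passed an unadjusted p under 0.01 for HSCs against CLPs, HSCs against GMPs or CLPs against GMPs, where 0.403%, 0.146% and 0.403% of all genes did. Mrps36 had the smallest p for HSCs against CLPs (−0.77 ± 0.31 SE) and for CLPs against GMPs (0.76 ± 0.30), both above 0.99 after edgeR's adjustment. The NR effect in HSCs was also tested over both cohorts and between them, and 0 members had p under 0.01 in either fit, where 0.103% and 0.137% of all genes had one. Markers of B and plasma cells, which are no part of an HSC sort, summed to 60.7 to 731 RPM in O-WT and 17.5 to 120 in O-NR HSCs of cohort 2, and their part in the member values was not tested. With the replicate number as a block, 12 members had p under 0.01 and 9 an adjusted p under 0.05 in the test between cohorts, although the number marks no shared animal there. The share of all genes called in that block fit is not given here.

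The cohort 1 comparisons were repeated without the 4 libraries of high olfactory sum. Then 1 member, Mrps25, had p under 0.01 in O-NR against O-WT. In O-NR-RC against O-WT the log2 fold change of Mrpl52 was 0.76 ± 0.17 SE, and the median of the members moved from −0.14 to 0.34. With 1 RUVr factor, a fitted term for unwanted variation, and all 9 libraries, the direction was the opposite. That fit gave 13 members lower in O-NR and 19 lower in O-NR-RC than in O-WT at p under 0.01. The share of all genes called in these refits is not given here, so the counts are not read as a result about the members. The fits without the 4 libraries hold 2 O-WT and 2 O-NR libraries and 1 of O-NR-RC, and the lone library is assumed to vary like the other groups. Markers of B and plasma cells summed to 92.2 RPM in that library, 31.8 and 35.3 in O-WT and 23.8 and 43 in the O-NR libraries kept. They summed to 68.4 and 361 in the O-NR-RC libraries left out, and their part in these differences was not tested. Mrpl23, a large-subunit protein, had 26.1 and 20.8 CPM in O-WT, 14.1, 13.7, 21.6 and 24.9 in O-NR and 37.7, 13.7 and 13.1 in O-NR-RC. As for Mrpl52, the lower values within O-NR and O-NR-RC are those of the libraries with high olfactory sums. The summed members of the 4 libraries were at 1399 to 1492 and those of the other 5 at 1478 to 1560 RPM.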

How the data were processed

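Total RNA was sequenced from sorted cells in 33 libraries. The authors trimmed reads with trim galore and cutadapt, used STAR for alignment (mm10, Gencode M22) and featureCounts for counting. Their deposited counts are raw whole numbers for 55376 symbols in each library. Sources used here do not give the strand setting, nor what was done with multimapping reads. Positions and exon lengths are of mm10 (GRCm38), from Gencode M21, and promoters from RefSeq, GRCm38.p6.

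Genes above 3 CPM in 4 (cohort 2), 2 (cohort 1) or 6 (both cohorts) or more libraries were tested with edgeR's quasi-likelihood test after TMM scaling (edgeR 4.0.16 in R 4.3.3; alternatives with DESeq2 1.42.0; summaries in Python 3.11.15), with Benjamini-Hochberg adjustment over all genes. Calls are adjusted p under 0.05 between cell types and unadjusted p under 0.01 for NR, p thresholds that the study also used. Its minimum fold change was not applied, so some calls would not pass it. The study's reporting summary also names RUV, a method for unwanted variation, among its RNA-seq tools. The main fits here do not use it. Cell types were fitted within each treatment over 12 libraries, NR within each cell type, cohort 1 as 9 libraries. Fits were tested on simulated data. Replicate pairs differed by more than sampling noise (smallest chi-square per degree of freedom 1.96), and all libraries were kept. In cohort 1, O-NR replicates 1 and 2 (1.96) and 3 and 4 (3.84) were far closer than pairs across them (53.1 to 71.75). O-NR-RC replicates 2 and 3 (4.02) were likewise closer to each other than to replicate 1 (102 and 73.2). Whether such close libraries are independent was not tested. Replicates are taken as separate mice, which the labels do not state, so the p-values measure the spread between these libraries, which may be technical in part. The names of the deposited tables give same-numbered HSC, CLP and GMP libraries of a treatment the same animal number. Correlations of the deviations of these libraries from the group means ran from −0.34 to 0.25. The main fits hold no term for this pairing.

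Named members were chosen by rule: up to 5 per direction with the largest difference called in both treatments, the 3 highest and 3 lowest per kb, the S18 family, the 3 most and least like the rest, those with -ps copies, and up to 2 factors per direction and list with the smallest p. Members and lists were chosen with earlier results of these data known. Alternatives were other scalings, filters on low counts, DESeq2, 1 RUVr factor, a replicate block, 1 model of 24 libraries and leaving out libraries. Library totals, the range of like olfactory sums and the fits without the 4 cohort 1 libraries of high olfactory sum were chosen after seeing the data. The summed level of HSC markers is not reported here.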

Additional observations from a re-analysis of the deposited data

Results flagged for a closer look

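Of 168 groups of 4 libraries in which the named members were checked, 7 held a library far from the other 3 by Dixon's test, and chance gives about 1 in 20. In CLP O-WT, replicate 3 was the low one for Mrpl19 (12.5 CPM), Mrps18b (7.23 CPM) and Mrps6 (5.61 CPM), and this is the library with the fewest counted reads and the highest olfactory sum of cohort 2. In GMPs, Mrpl17 was highest in O-NR replicate 1 (46.4 CPM) and Mrps24 in O-WT replicate 2 (37.2 CPM). In O-NR, Mrpl57 was lowest in HSC replicate 2 (9.34 CPM) and Mrps36 in CLP replicate 1 (11.6 CPM), the O-NR library nearest to the O-WT CLPs.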

How the results depend on the processing

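The negative medians of HSCs and CLPs against GMPs, and the calls of Mrpl52 in HSCs against both, kept their direction under each alternative tried, while sizes and numbers of calls moved. Under library totals the medians were −0.57 (HSC–GMP) and −0.41 (CLP–GMP) in O-WT and −0.59 and −0.44 in O-NR, with 44 members lower in CLPs against GMPs in O-WT, and the summed ratios of GMPs were 1.43 and 1.47 to HSCs and 1.35 and 1.37 to CLPs (1.93 and 1.67 under TMM). Under upper quartile scaling, CLPs against GMPs gave 46 lower in O-WT (15.8% of all genes, median −0.44, ratio 1.42). In O-NR it gave 37 lower and 1 higher (15.8% and 41.7% of all genes, median −0.39, ratio 1.36), and HSCs against GMPs in O-NR a median of −0.64. Without a filter on low counts the CLP–GMP medians were −1.23 and −0.90, and with 1 CPM −0.91 in O-NR. HSCs against CLPs in O-WT gave 2 higher with DESeq2 size factors (16% of all genes), no filter or DESeq2's test. The lower members there numbered 13 (totals, 13.9% of all genes) or 19 (upper quartile, 15.9%). In O-NR 24 were lower (upper quartile, 22.5% of all genes), 3 (1 CPM), 2 (no filter) and 3 (1 model of 24 libraries). Shares of all genes are not given here for the filters, DESeq2's test and the 1 model of 24 libraries. The causes were not tested.

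For NR, members with p under 0.01 numbered 1 in HSCs of cohort 2 under upper quartile and totals (Mrps31) and 2 with 1 RUVr factor, 1 in CLPs (Mrps36, RUVr and 1 model), 1 in GMPs (Mrpl36, all 3 other scalings and RUVr), 1 in the CLP–GMP interaction (Mrps36, DESeq2 size factors, 1 CPM and DESeq2's test) and 1 over both cohorts (upper quartile and totals). With 1 RUVr factor, cohort 1 gave 13 in O-NR against O-WT (8 adjusted) and 19 in O-NR-RC against O-WT (16 adjusted), all lower. Leaving out its 4 libraries of high olfactory sum gave 1, higher, in O-NR against O-WT and a member median of 0.34 in O-NR-RC against O-WT. The share of all genes called in the fits with RUVr or without these 4 libraries is not given here. ETS and YY1 shares fell to 24% and 1.33% in the 250 bases before the start.

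The replicate block pairs libraries taken to be of the same animal across cell types. With it, 1 member was lower in HSCs against CLPs in O-WT, and it moved no other cell type count by over 1.5 times. O-WT and O-NR share only numbers, and their deviations did not all correlate above 0.1. There the block gave 12 (9 adjusted, median 0.41 in place of 0.12) in the test between cohorts and no other call, and the share of all genes is not given here.

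Leaving out 1 library at a time, HSCs against CLPs gave 2 to 7 higher and 0 to 10 lower in O-WT and 2 to 5 higher and 10 to 21 lower in O-NR, GMPs 0 to 1 with p under 0.01 for NR, and O-NR-RC against O-WT medians from −0.58 (without O-NR-RC replicate 1) up to 0.043. Mrps18c, uncalled in O-NR-RC against O-NR (0.36), ran from −0.030 without O-NR-RC replicate 1 to 0.58 without replicate 2. Of the settings for single named members, 699 kept side and direction, 18 passed a threshold, 12 lost it and 1 reversed. The median SE of a member, 0.10 to 0.36 for NR and withdrawal, limits the changes that could be seen.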
